A study of Homo sapiens with 36 samples.

Results

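WiDr, a human colorectal adenocarcinoma line, was compared with MDA-MB-468, a basal-like breast carcinoma line, and PANC-1, a pancreatic carcinoma line, in their control state. The members are the genes whose RNA was higher or lower in WiDr than in each of the other 2 lines, and 6997 of the 16112 genes tested met that rule. The 9 libraries used are 3 per line, of 36 in the series, and the cells of all 9 expressed a non-silencing short hairpin RNA from the lentiviral vector pGIPZ, so none is from untransduced cells. Cells of the 3 lines were grown in DMEM with serum and antibiotics, total RNA was taken with Trizol and columns, and poly-A RNA was sequenced. The remaining 27 libraries carry targeting hairpins or, in WiDr, guide RNAs. The design text calls the 3 libraries of a line biological replicates. Each tissue is represented by 1 tumour line, so a p-value measures a difference against the spread among libraries of these lines and says nothing of other lines from the same tissue. In RNA from bulk cultures, fewer cells that express a gene and less RNA per cell cannot be told apart.

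The epithelium of the large bowel is renewed from stem cells at the crypt base that depend on Wnt signalling, and it carries a brush border of absorptive cells and mucus-secreting goblet cells. Its identity is set by transcription factors of the CDX, HNF4, GATA and KLF families, and posterior HOX genes mark its place along the body axis. Basal-like breast tumours keep keratins of the myoepithelial layer, and pancreatic carcinoma lines often lose epithelial traits and express vimentin and other mesenchymal genes.

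Levels are given as CPM, the counts of a gene scaled per library by its total and a TMM factor. A difference is the log2 ratio of WiDr over the named line fitted by edgeR, with its standard error, so a positive value means more RNA in WiDr; where a pair of differences, bounds or medians is given, the first is against MDA-MB-468 and the second against PANC-1. A gene passed at a Benjamini-Hochberg adjusted p under 0.05 over all genes tested, and "over 2-fold" means that edgeR's test against a fold of 2 passed in both comparisons. Both comparisons use the same WiDr libraries and so are not independent of each other.

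Library totals ran from 30582799 to 38470613 counts. Libraries of a line correlated with each other at r of 0.983 or more and with any library of another line at 0.807 at most. The first MDA-MB-468 library and the first PANC-1 library stood apart from the others of their line. A chi-square of the counts, divided by its degrees of freedom, was 170.4 and 142.1 between that MDA-MB-468 library and the other two and 24.33 between those; in PANC-1 the values were 146.6 and 187.9 against 27.44. Among the WiDr libraries it was 4.013 to 14.83. The share of counts from ribosomal RNA genes was 1.59 to 2.71% for WiDr, 2.23 to 8.49% for MDA-MB-468 and 4.61 to 9.6% for PANC-1. With both first libraries left out, an alternative chosen after seeing the data, 4207 genes were higher and 4051 lower in WiDr than in each other line, against 3473 and 3524 with all 9.

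The lines differed in most genes. Of the 16112 genes tested, 11555 (71.7%) passed between WiDr and MDA-MB-468, 5617 of them higher and 5938 lower in WiDr, and 11694 (72.6%) passed between WiDr and PANC-1, 5631 higher and 6063 lower. WiDr was higher than each other line at 3473 genes (21.6%) and lower at 3524 (21.9%), and it lay between the other lines, with both differences past the test, at 1904 (11.8%). The test against a 2-fold change passed at 5750 genes (35.7%) against MDA-MB-468 and 5893 (36.6%) against PANC-1, at 1499 (9.30%) upward in both and at 1383 (8.58%) downward in both. The median difference over all genes tested was 0 against MDA-MB-468 and -0.018 against PANC-1. Many of these genes were near silent on one side. Of the 1383 genes over 2-fold lower, 393 had 3 counts or fewer over the 3 WiDr libraries, 224 of them 0. Of the 1499 over 2-fold higher, 149 had 3 counts or fewer over both other lines together, 63 of them 0. Genes at 0 in both other lines passed the filter on low counts through WiDr alone, so they had to differ. Genes near 0 in both, among them MUC5AC, LYZ, HNF4A, VIL1, MUC2 and REG4, also passed through WiDr alone. The filter thus fixed their direction, and their p-values are no separate support. The share of a list therefore describes its tested members only. The rule did not use the other 27 libraries, which carry other constructs. In them all 15 WiDr libraries lay above all 12 others at 1321 of the 1499 genes (88.1%). They lay below all 12 at 1198 of the 1383 (86.6%). Among the tested genes with neither of these 2-fold calls, 1305 lay above, 1145 lay below and 10780 overlapped.

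**Figure D1:**
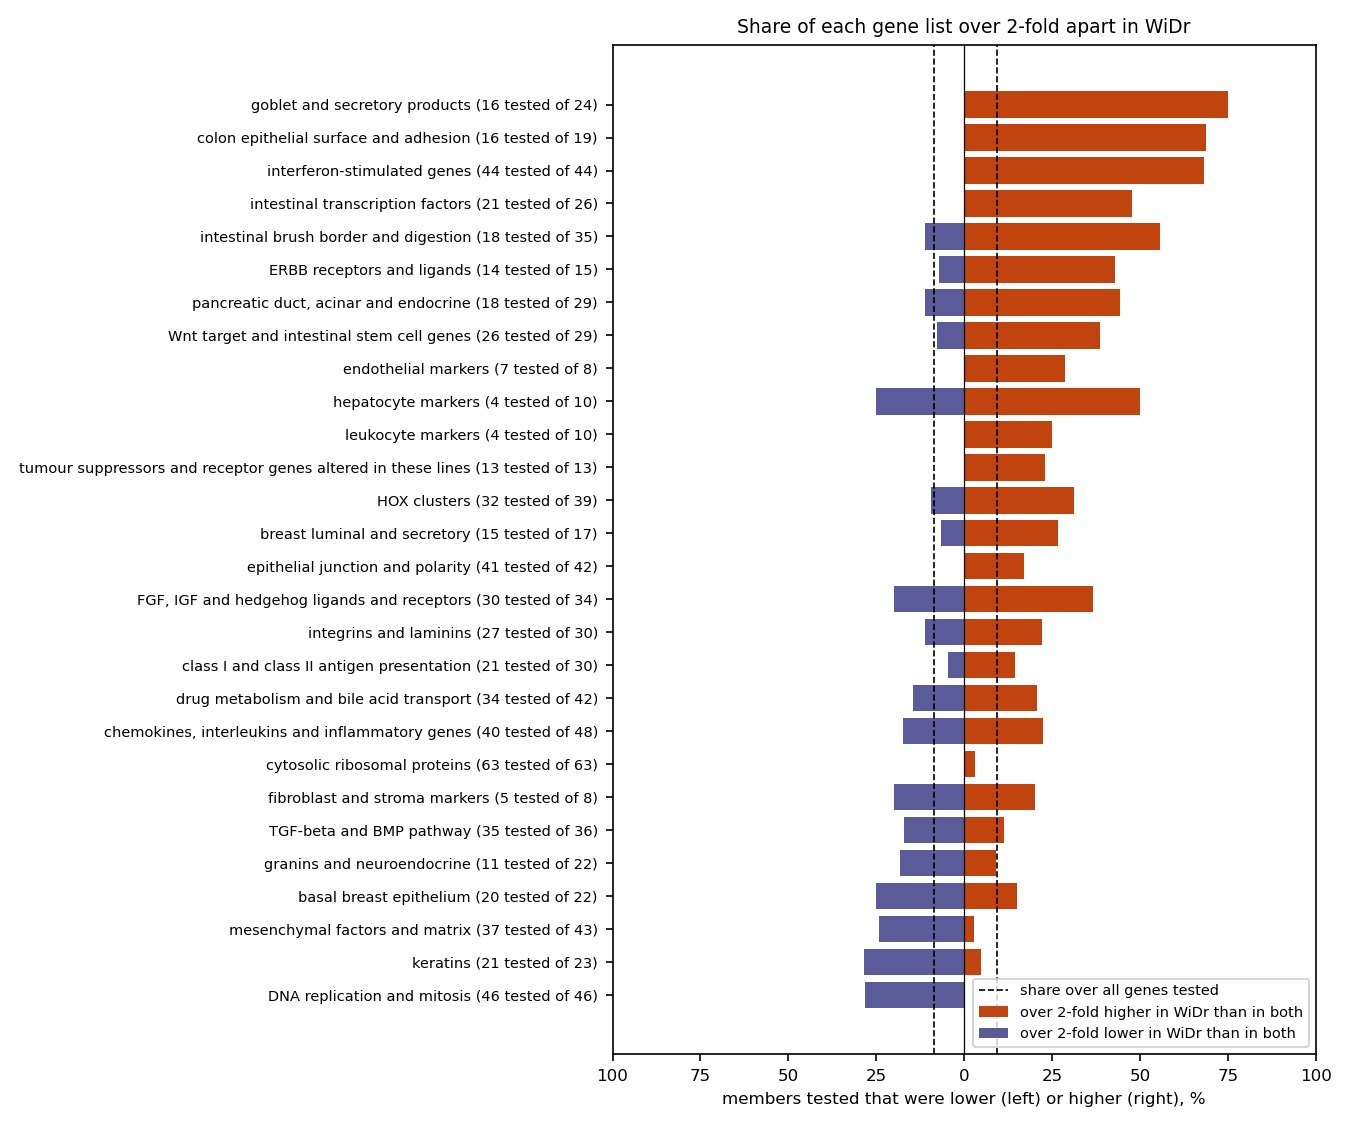
Percent of the tested members of each of the 28 gene lists that were over 2-fold higher (bars to the right) or over 2-fold lower (bars to the left) in WiDr than in each of the other lines; dashed lines mark the shares over all genes tested, 9.30% and 8.58%. Goblet and secretory products reached 75% and interferon-stimulated genes 68.2% on the higher side, and DNA replication and mitosis genes 28.3% on the lower side.

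The genes that stood out most in WiDr were ranked by the smaller of the differences of mean log2(CPM + 1) from the other lines, which describes the choice and supports nothing. The leading gene was MUC5AC (chr11:1157953-1201138 on hg38 in GENCODE 29, as for the gene positions that follow), a gel-forming mucin of the stomach that colorectal tumours can also make, with 4056, 4278 and 4043 CPM in WiDr, 0, 0.028 and 0 in MDA-MB-468 and 0.333, 0.174 and 0.0854 in PANC-1. Its level in every WiDr library was far above that in every other library, all of which were under 1 CPM. The difference from PANC-1 was 14.29 ± 0.33 (edgeR quasi-likelihood, adjusted p = 1.22e-09), and the ratio to MDA-MB-468, where 1 count was found, was 425600 (95% counting interval 76390 to 16810000). LYZ (chr12:69348341-69354234), which encodes lysozyme, stood at 1555, 1528 and 1552 CPM in WiDr, 0.74, 0.056 and 0 in MDA-MB-468 and 0.0512, 0.0871 and 0.199 in PANC-1. Its differences were 12.46 ± 0.67 and 13.72 ± 0.72 (adjusted p = 1.83e-07 and 1.41e-07), and no library of another line came near the WiDr range. KRT20 (chr17:40875941-40885227), the keratin of differentiated intestinal surface cells, stood at 712, 720.4 and 729 CPM in WiDr, 0.0854, 0.392 and 0.434 in MDA-MB-468 and 0 in every library of PANC-1. KRT20 thus differed from MDA-MB-468 by 11.21 ± 0.34 (adjusted p = 8.43e-08) and was at least 26090-fold higher than in PANC-1, a bound computed against 3 counts over the group as for every gene at 0.

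IFI27, an interferon-induced mitochondrial protein, stood at 388, 458 and 431 CPM in WiDr, 0, 0 and 0.031 in MDA-MB-468 and 0.205, 0.261 and 0.513 in PANC-1. GPX2, the gastrointestinal glutathione peroxidase, differed from MDA-MB-468 by 10.17 ± 0.23, and GCNT3, which builds mucin core glycans, by 9.12 ± 0.28 and from PANC-1 by 13.97 ± 0.39. EREG, an EGF receptor ligand, is taken up with its family further on. SPINK1, a secreted trypsin inhibitor, stood at 237, 278 and 275 CPM in WiDr and 0 in every library of both other lines, which makes it at least 9048-fold and at least 9536-fold higher. Trypsinogen genes went with it: PRSS2 was at least 7836-fold higher than in PANC-1 and PRSS1 differed from MDA-MB-468 by 12.19 ± 0.31, though these are close copies whose reads the counting step may have split in part. SERPINA1, the antitrypsin gene, differed by 10.74 ± 0.48 and 9.19 ± 0.43, and CYP3A5, a drug-oxidising enzyme of liver and gut, by 10.40 ± 0.28 and 10.75 ± 0.29. TSPAN8, a tetraspanin of gastrointestinal epithelium, was at 281 CPM on average in WiDr and at 0 in all MDA-MB-468 libraries. CEACAM5, the carcinoembryonic antigen, was at 189.5 CPM, with ratios of 6508 (95% counting interval 2227 to 31560) and 20580 (95% counting interval 3693 to 812900). TM4SF4, a membrane protein of the tetraspanin-like L6 family, differed by 8.04 ± 0.24 and 12.42 ± 0.32.

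Among the 15 lowest, ELOVL5 and RAB31 had no count in any WiDr library. ELOVL5 (chr6:53267398-53349179), an elongase of polyunsaturated fatty acids, stood at 0 in all 3 WiDr libraries, 169, 184 and 192 in MDA-MB-468 and 411, 400.3 and 376 in PANC-1, so it was at least 5794-fold and at least 12620-fold lower in WiDr. RAB31, a small GTPase of vesicle transport, was at 0 in WiDr against means of 157 and 206 CPM. In the other 15 WiDr libraries ELOVL5 ran from 0 to 0.0667 CPM. WWTR1, which encodes the Hippo pathway coactivator TAZ, stood at 0.0322, 0.236 and 0.26 CPM in WiDr, 96.1, 140.1 and 132 in MDA-MB-468 and 373, 324 and 327 in PANC-1. The groups were far apart, with differences of -9.40 ± 0.34 and -10.88 ± 0.35 (edgeR quasi-likelihood, adjusted p = 1.6e-08 and 5.87e-09). AMOTL1, an angiomotin that binds the same pathway's coactivators, was also among the 15, at 0.0107 CPM in WiDr against 73.3 and 115. HLTF, a chromatin remodeller of the SWI/SNF family, differed by -9.32 ± 0.34 and -10.42 ± 0.34. ID3, a target gene of BMP signalling that blocks basic helix-loop-helix factors, stood at 0.0322, 0.118 and 0.13 CPM in WiDr, 76.1, 52.2 and 60.3 in MDA-MB-468 and 56, 73.8 and 82.5 in PANC-1, and differed by -9.33 ± 0.34 and -9.50 ± 0.34. ANPEP, the brush border aminopeptidase N, went against the direction of most intestinal genes and is given with them. FBLN1, an extracellular matrix protein, differed by -11.51 ± 0.32 and -10.33 ± 0.32, and the glutathione transferase GSTM3 by -9.68 ± 0.50 and -9.23 ± 0.50. AKR1B1, an aldose reductase with close relatives, ADGRL2, ANTXR1, SLFN13 and CD109 were also among the 15.

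**Figure D2:**
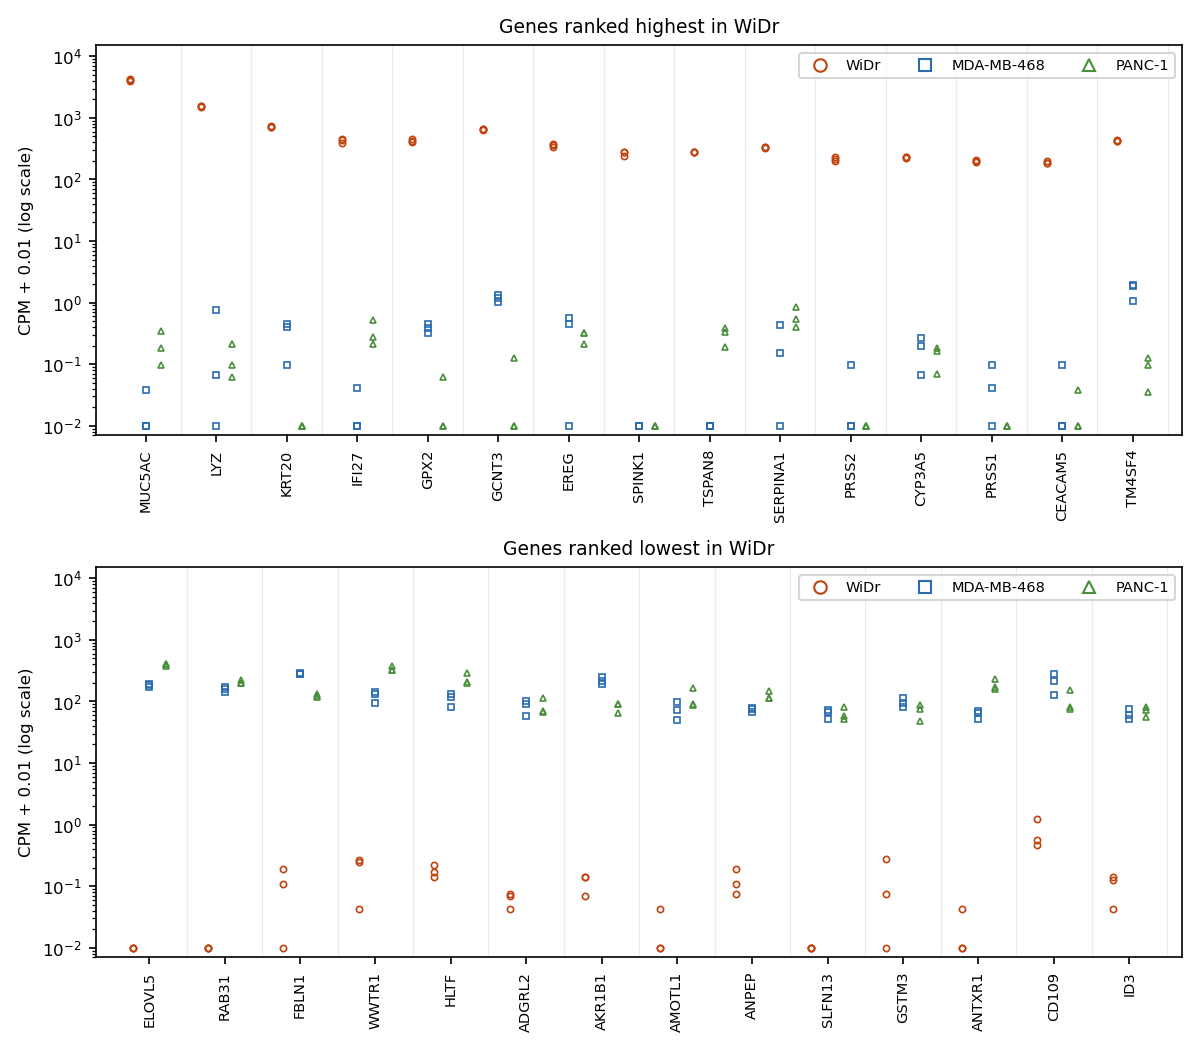
CPM (log axis, with 0.01 added) of the reported genes among the 15 highest and 15 lowest ranked in each of the 9 libraries: WiDr circles, MDA-MB-468 squares, PANC-1 triangles, 3 points per line and gene. No WiDr point overlaps a point of another line; ELOVL5 and RAB31 lie at 0 in all WiDr libraries and SPINK1 at 0 in all libraries of the other lines.

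Intestinal transcription factors were higher in WiDr in part. Of 26 listed, 21 were tested: 13 were higher than in each other line and none lower, 10 of the 13 over 2-fold (47.6% of those tested, against 9.30% of all genes), and the medians of the list were 2.73 and 4.54. All 10 also lay above the other lines in the 27 further libraries, as did 88.1% of all genes over 2-fold higher. HNF4A (chr20:44355700-44434596), a nuclear receptor that drives enterocyte and hepatocyte genes, stood at 25.5, 26.3 and 23.1 CPM in WiDr, 0, 0.028 and 0.155 in MDA-MB-468 and 0.205, 0.174 and 0.199 in PANC-1. All WiDr libraries were above 20 CPM and all others under 1, with differences of 8.65 ± 0.41 and 6.99 ± 0.35 (edgeR quasi-likelihood, adjusted p = 7.97e-08 and 1.02e-07). Its relative HNF4G was at 38 CPM on average against 0 and 0.794, and FOXA3, a forkhead factor of endoderm, differed by 8.13 ± 0.53 and 5.59 ± 0.42. KLF5, a Kruppel-like factor of proliferating crypt cells, stood at 824, 775 and 811 CPM in WiDr, 134, 149 and 151 in MDA-MB-468 and 1.49, 1.19 and 0.968 in PANC-1, so MDA-MB-468 had an intermediate level, and the differences were 2.47 ± 0.12 and 9.36 ± 0.17. KLF4, its counterpart in differentiating cells, differed by 2.67 ± 0.10 and 4.54 ± 0.11. GATA6, which maintains gut epithelium, differed by 2.73 ± 0.12 and 9.79 ± 0.19, and PROX1, a homeobox factor found in colorectal tumours, from PANC-1 by 7.03 ± 0.29. ELF3, FOXA1 and SOX9 were higher than in each other line without passing the 2-fold test in both.

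CDX2, often used to name colonic epithelium, was lower than in PANC-1. CDX2, the caudal homeobox factor of the intestine, stood at 2.58, 3.16 and 3.15 CPM in WiDr, 0 in every library of MDA-MB-468 and 9.21, 10.7 and 11.2 in PANC-1. WiDr therefore lay between the other lines, at least 101.8-fold higher than MDA-MB-468 but lower than PANC-1 by a log2 difference of -1.80 ± 0.17 (edgeR quasi-likelihood, adjusted p = 3.34e-05). CDX1 stood at 0.999, 0.738 and 0.65 CPM in WiDr and 0 in every library of both other lines, a low level with no count elsewhere. FOXA2 and NR5A2 were also between the lines and below PANC-1, and VDR and SPDEF were between and below MDA-MB-468. ATOH1, the goblet cell determinant, ISX, NR1I2, NKX2-2 and NEUROG3 were not tested for too few counts. GATA4, a factor of the proximal intestine, had no count in WiDr or MDA-MB-468 and averaged 26.9 CPM in PANC-1.

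Among brush border and digestion genes VIL1 and DPP4 were higher in WiDr than in each other line, and ANPEP and ESPN were lower. Of 35 listed, 18 were tested: 11 were higher in WiDr, 10 of them over 2-fold (55.6%, against 9.30% of all genes). Another 2 were over 2-fold lower (11.1%, against 8.58%). The medians were 4.09 and 6.99, or 4.09 and 5.53 with genes at 0 in a line set at their bound, and over the listed genes with any count, no filter applied, 1.25 and 0.67, since the 17 untested members averaged under 1 CPM in every line. VIL1, the actin-bundling protein villin, stood at 52.3, 55.5 and 56.5 CPM in WiDr, 0.114, 0.364 and 0.124 in MDA-MB-468 and 0.128, 0.116 and 0.171 in PANC-1, with differences of 8.05 ± 0.27 and 8.59 ± 0.28 (edgeR quasi-likelihood, adjusted p = 1.1e-08 and 7.04e-09). Members of the complex that links microvilli tips went the same way: USH1C differed from PANC-1 by 9.78 ± 0.22 and CDHR5 from MDA-MB-468 by 8.89 ± 0.36, and ANKS4B was at least 111-fold higher than in MDA-MB-468. EPS8L3, an actin regulator, averaged 33.4 CPM against 0 and 0.019. DPP4, a peptidase of the apical membrane, stood at 129, 118 and 123 CPM in WiDr, 4.24, 5.38 and 4.97 in MDA-MB-468 and 0.154, 0.261 and 0.171 in PANC-1, and each WiDr library exceeded every other one by a wide margin. In contrast ANPEP stood at 0.0967, 0.177 and 0.065 CPM in WiDr, 66.9, 75.7 and 76.8 in MDA-MB-468 and 146, 113 and 115 in PANC-1, and differed by -9.27 ± 0.24 and -10.04 ± 0.24. ESPN, another actin bundler, was lower by log2 differences of -4.15 ± 0.21 and -3.04 ± 0.21. The digestive enzymes SI and ALPI, the fatty acid carriers FABP1 and FABP2, the anion exchanger SLC26A3 and the carbonic anhydrase CA1, all defining genes of mature absorptive cells, averaged 0.0313, 0.00984, 0.0522, 0, 0.00984 and 0 CPM in WiDr and were not tested.

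Surface and adhesion genes of colonic epithelium were higher at 13 of 16 tested members of 19 listed, 11 of them over 2-fold (68.8%), with none lower. The medians were 4.94 and 7.03, or 4.42 and 7.03 with genes at 0 set at their bound. Without the filter the median against PANC-1 was 4.54. All 11 lay above the other lines in the 27 further libraries, as did 88.1% of all genes over 2-fold higher. LGALS4, a galectin of the intestinal lining, stood at 403, 452 and 433 CPM in WiDr, 0.37, 0.42 and 0.528 in MDA-MB-468 and 2.12, 3.54 and 3.76 in PANC-1, with differences of 9.93 ± 0.26 and 7.10 ± 0.22. CEACAM6 was at least 12250-fold higher than in PANC-1 and differed from MDA-MB-468 by 4.83 ± 0.10, and CEACAM1 differed by 3.36 ± 0.15 and 6.96 ± 0.18; reads of this family can be split between close copies. FUT2, the secretor fucosyltransferase, stood at 5.74, 4.93 and 5.56 CPM in WiDr, 2.39, 1.51 and 1.61 in MDA-MB-468 and 0.358, 0.203 and 0.114 in PANC-1, with differences of 1.55 ± 0.28 and 4.54 ± 0.35 (edgeR quasi-likelihood, adjusted p = 0.000733 and 2.02e-06). CDH17, liver-intestine cadherin, was low at 0.58, 0.472 and 0.358 CPM in WiDr, 0 in every library of MDA-MB-468 and 0.205, 0.174 and 0.199 in PANC-1, and its difference of 1.27 ± 0.37 from PANC-1 lost its call when single libraries were left out. GPA33, the colonic A33 antigen, averaged 0.0423 CPM and was not tested.

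Goblet and secretory genes had the largest share of tested members over 2-fold higher among the 28 lists; the share higher at any size was larger for colonic surface genes (81.2%) and interferon-stimulated genes (79.5%). Of 24 listed, 16 were tested and 12 were over 2-fold higher in WiDr (75%), with medians of 7.91 and 7.95, or 6.50 and 5.53 with genes at 0 set at their bound, and 5.61 and 4.28 without the filter. Members such as SPINK1, MUC13 and TFF1 had no count in the other lines and passed the filter through WiDr alone, so they had to differ and the share describes the tested set only. MUC2, the main gel-forming mucin of the colon, stood at 27.7, 29.3 and 25.8 CPM in WiDr, 0.0285, 0.252 and 0.279 in MDA-MB-468 and 0.0512, 0.0581 and 0.057 in PANC-1. Its differences were 7.20 ± 0.35 and 8.87 ± 0.40 (edgeR quasi-likelihood, adjusted p = 9.46e-08 and 5.54e-08). MUC13, a membrane mucin, stood at 20.8, 19.5 and 19 CPM in WiDr and 0 in every library of both other lines, at least 677.7-fold and at least 714.3-fold higher. AGR2, a disulfide isomerase needed for mucin folding, stood at 1170, 1208 and 1180 CPM in WiDr, 26.8, 21.1 and 24.8 in MDA-MB-468 and 43.8, 70.9 and 68.5 in PANC-1, with differences of 5.61 ± 0.21 and 4.28 ± 0.20, so it was present in every line and highest in WiDr. AGR3, its neighbour and relative, stood at 40.5, 39.5 and 38.3 CPM in WiDr, 0.228, 0.056 and 0.0621 in MDA-MB-468 and 0 in every library of PANC-1. REG4, a lectin of enteroendocrine and goblet cells, stood at 1.32, 1.06 and 1.46 CPM in WiDr, 0, 0.056 and 0.0931 in MDA-MB-468 and 0 in every library of PANC-1. TFF1 and TFF3, the trefoil peptides that join mucus, averaged 2.01 and 4.75 CPM in WiDr. The 8 untested products, among them CLCA1, ZG16, ITLN1 and SPINK4 of mature goblet cells and the Paneth cell defensins DEFA5 and DEFA6, averaged under 0.05 CPM or 0 in WiDr. MUC5B was between the lines and highest in MDA-MB-468, and reads shared with MUC5AC cannot be followed in gene counts.

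Upstream sequence of some of these members can be read beside their levels. RefSeq windows of 250 bases before the transcript start (GRCh38.p14) were searched on both strands for CAAAGTCCA, letters bound by HNF4 factors, and for TATAAA, the core promoter TATA box; the searches do not overlap. The first letters are in 80 of 27305 windows (0.293%) and the second in 3040 (11.1%). Only 28 of the 43 intestinal list members over 2-fold higher have a window, as do 72.0% of the genes tested, so no count over the members is given. The windows of MUC13 and FUT2 are shown because they hold the HNF4 letters, and those of AGR3 and REG4 as examples that hold TATAAA. FOXA3, CEACAM6 and KLF5 also hold TATAAA, starting 30, 139 and 194 bases before the start, and are not printed. Capitals mark the match, which for MUC13 and FUT2 is on the opposite strand and reads TGGACTTTG. MUC13 lies at chr3:124934752-124935001, minus strand, with the match starting 51 bases before the start. FUT2 lies at chr19:48695721-48695970, plus strand, with the match 112 bases before it. AGR3 lies at chr7:16881984-16882233, minus strand, and REG4 at chr1:119811461-119811710, minus strand, both with TATAAA 31 bases before the start. Each is printed on the strand of its gene, and a match of letters is a description and not a measured binding site.
MUC13: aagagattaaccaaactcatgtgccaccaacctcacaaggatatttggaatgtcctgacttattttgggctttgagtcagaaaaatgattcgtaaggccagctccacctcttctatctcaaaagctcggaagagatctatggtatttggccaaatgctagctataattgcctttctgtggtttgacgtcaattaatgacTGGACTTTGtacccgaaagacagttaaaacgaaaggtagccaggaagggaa
FUT2: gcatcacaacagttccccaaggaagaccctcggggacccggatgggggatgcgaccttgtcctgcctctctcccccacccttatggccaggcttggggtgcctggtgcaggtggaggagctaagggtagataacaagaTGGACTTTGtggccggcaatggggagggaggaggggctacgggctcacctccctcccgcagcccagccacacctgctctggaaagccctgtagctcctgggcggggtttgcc
AGR3: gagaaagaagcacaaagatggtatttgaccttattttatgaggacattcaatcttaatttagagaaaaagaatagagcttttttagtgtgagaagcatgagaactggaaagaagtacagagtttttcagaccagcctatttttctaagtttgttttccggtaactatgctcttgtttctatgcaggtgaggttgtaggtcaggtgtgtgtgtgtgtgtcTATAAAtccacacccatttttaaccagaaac
REG4: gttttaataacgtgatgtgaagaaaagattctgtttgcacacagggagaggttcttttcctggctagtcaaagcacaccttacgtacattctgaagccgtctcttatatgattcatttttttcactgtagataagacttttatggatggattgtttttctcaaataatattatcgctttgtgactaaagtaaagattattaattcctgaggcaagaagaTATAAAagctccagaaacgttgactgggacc

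**Figure D3:**
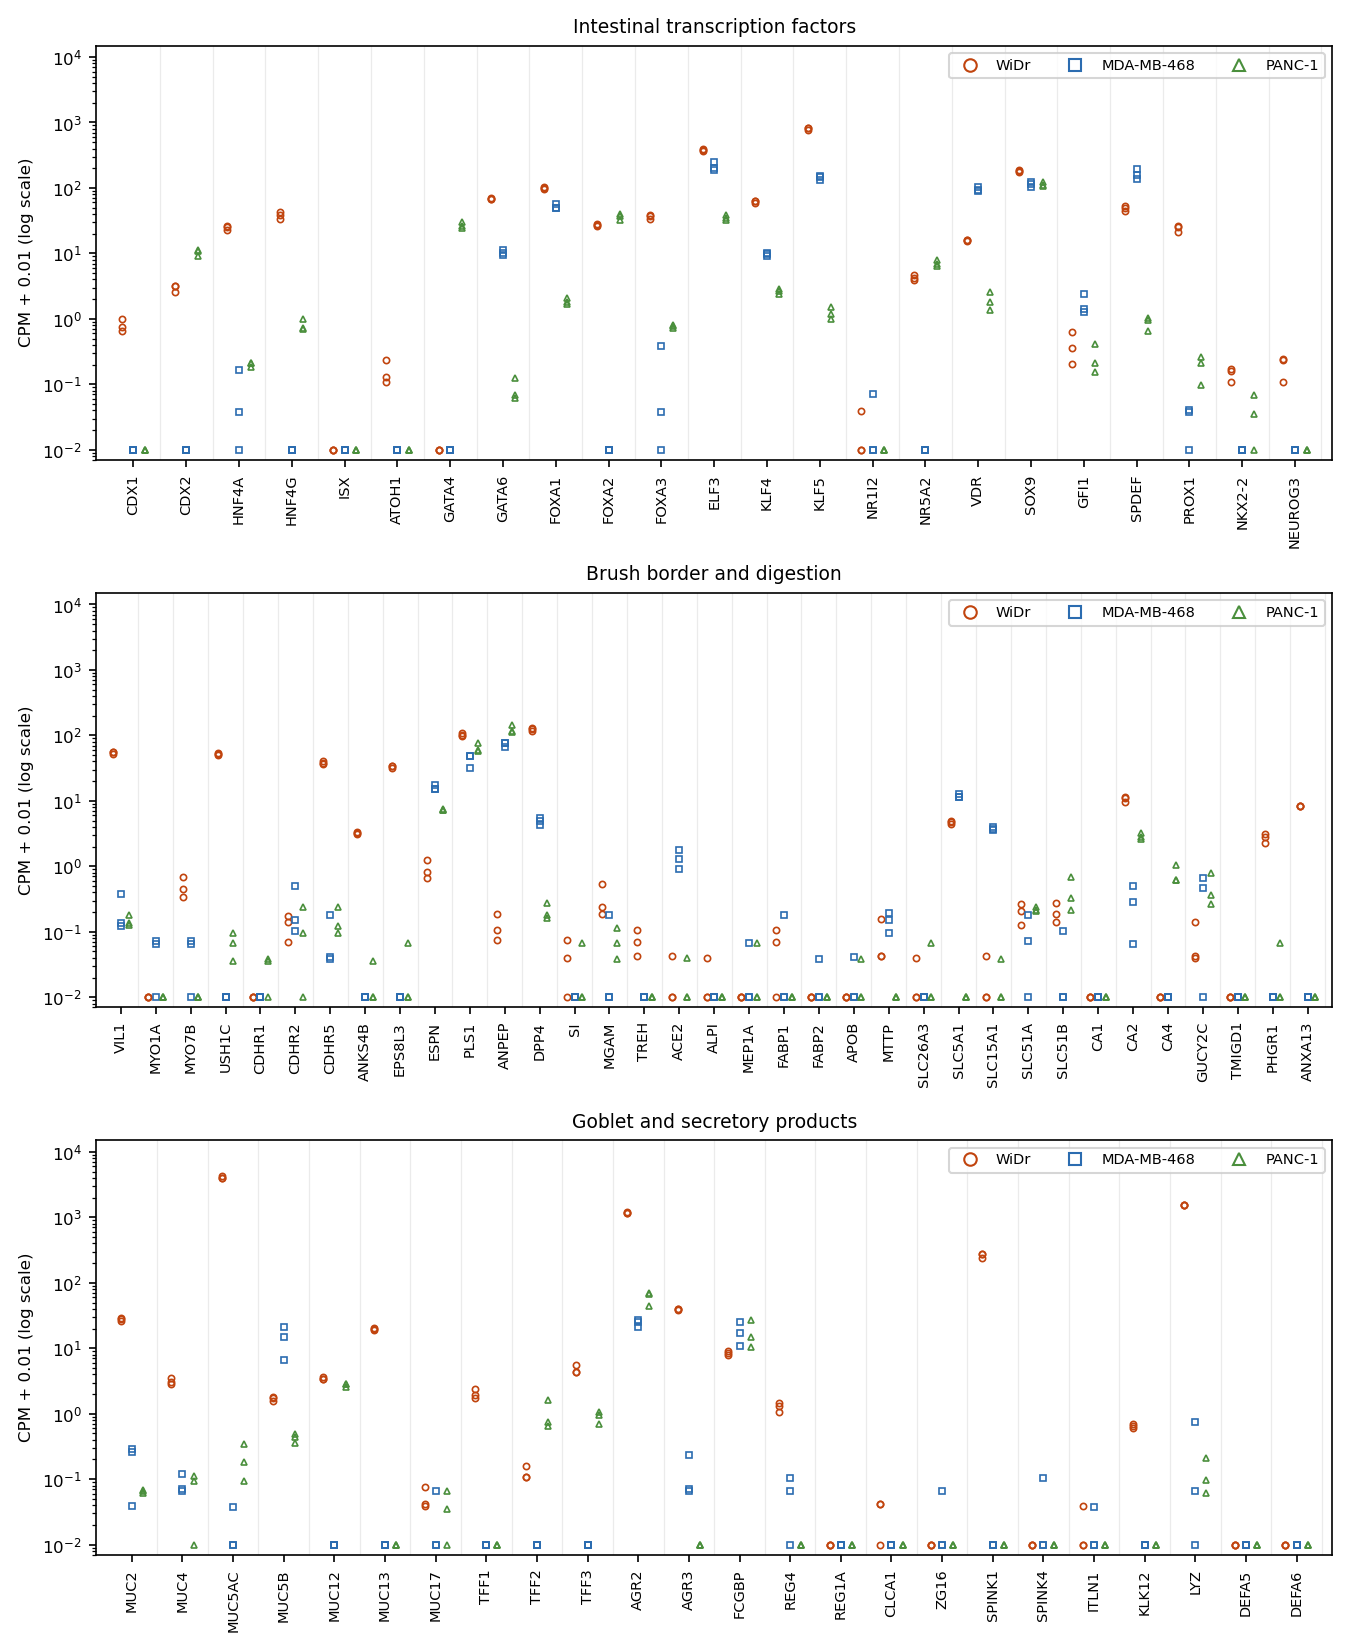
CPM (log axis, with 0.01 added) in each library for the reported intestinal transcription factors, brush border and digestion genes, and goblet and secretory products; WiDr circles, MDA-MB-468 squares, PANC-1 triangles. HNF4A, VIL1 and MUC2 lie above both other lines in every WiDr library, CDX2 lies between the lines, and ANPEP lies below both.

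Wnt target and intestinal stem cell genes were higher in WiDr at 14 of 26 tested members (29 listed), 10 over 2-fold. They were lower at 3, 2 over 2-fold, with medians of 1.63 and 2.54. The summed level of the list was lowest in WiDr, at 2169 to 2233 CPM against 2667 to 3308 in MDA-MB-468 and 3601 to 3806 in PANC-1. The shares were 53.8% higher and 11.5% lower, against 21.6% and 21.9% of all genes tested. Past 2-fold they were 38.5% and 7.69%, against 9.30% and 8.58%. With the 3 WiDr libraries that carry a non-targeting guide RNA in place of the hairpin controls, the medians were 2.85 and 4.29 and 14 members were over 2-fold higher. RNF43, a ubiquitin ligase that removes Wnt receptors, stood at 172, 185 and 171 CPM in WiDr, 3.5, 3.98 and 2.64 in MDA-MB-468 and 7.78, 6.01 and 5.67 in PANC-1, with differences of 5.70 ± 0.19 and 4.76 ± 0.18 (edgeR quasi-likelihood, adjusted p = 1.02e-08 and 1.52e-08). ZNRF3, its partner, differed by 1.55 ± 0.19 and 3.23 ± 0.20. LGR5, the R-spondin receptor of crypt stem cells, stood at 4.25, 3.66 and 3.84 CPM in WiDr, 0 in every library of MDA-MB-468 and 0.256, 0.0871 and 0.142 in PANC-1, and the stem cell factor ASCL2 at 10.9, 13.8 and 10.8 CPM in WiDr, 0.911, 0.644 and 0.714 in MDA-MB-468 and 0 in every library of PANC-1. SMOC2, a secreted matrix protein of the crypt base, was at 12.3 CPM in WiDr and 0 in every other library. It passed the filter through WiDr alone and so had to differ. AXIN2, the feedback inhibitor most often read as a Wnt target, averaged 43.6 CPM in WiDr and 34.8 in MDA-MB-468, a difference of 0.33 ± 0.14 (adjusted p = 0.0542) that did not pass, against 0.613 in PANC-1. On the other side, CD44, a hyaluronan receptor and Wnt target of crypt cells, stood at 103, 95.8 and 96.5 CPM in WiDr, 1901, 2342 and 2313 in MDA-MB-468 and 2466, 2284 and 2143 in PANC-1. All WiDr libraries lay far below every other library, with differences of -4.47 ± 0.13 and -4.54 ± 0.13 (adjusted p = 4.66e-09 and 3e-09). EPHB2, a receptor that positions crypt cells, differed by -1.57 ± 0.12 and -1.52 ± 0.12. OLFM4 had no count in WiDr or PANC-1 and averaged 98.5 CPM in MDA-MB-468. PHLDA1 was higher with the hairpin control libraries, yet its smaller difference was -0.46 with the guide control libraries.

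Junction and polarity genes separated WiDr from PANC-1 more than from MDA-MB-468. Of 41 tested members (42 listed) 16 were higher than in each other line, 7 over 2-fold, and 3 lower. The shares were 39% higher and 7.32% lower, against 21.6% and 21.9% of all genes tested. Past 2-fold they were 17.1% and 0%, against 9.30% and 8.58%. The medians were 0.06 against MDA-MB-468 and 3.44 against PANC-1. CDH1, E-cadherin, stood at 473, 452 and 468 CPM in WiDr, 114, 159.8 and 136 in MDA-MB-468 and 15, 12.3 and 9.83 in PANC-1, which orders the lines as WiDr, MDA-MB-468 and PANC-1 without overlap, and its differences were 1.77 ± 0.16 and 5.23 ± 0.19 (edgeR quasi-likelihood, adjusted p = 8.26e-06 and 1.46e-08). EPCAM, the pan-epithelial adhesion molecule, averaged 602, 537 and 42.7 CPM in WiDr, MDA-MB-468 and PANC-1, and the first pair did not pass (difference 0.17 ± 0.14, adjusted p = 0.323). MAL2, of apical transport, differed by 2.48 ± 0.13 and 14.10 ± 0.24. ESRP1, which splices epithelial isoforms, differed by 1.32 ± 0.12 and 8.66 ± 0.17, and SPINT1, an inhibitor of membrane proteases, by 1.79 ± 0.09 and 7.86 ± 0.12. The desmosomal gene DSP was between the lines and highest in MDA-MB-468.

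Mesenchymal genes were lower than in each other line at 11 of 37 tested members (43 listed), 9 over 2-fold, and higher at 3. More of them, 15, lay between the other lines with both differences past the test, as did 11.8% of all genes tested. The medians were -0.34 and -3.08. The share lower was 29.7%, against 21.9% of all genes tested, and the share over 2-fold lower 24.3%, against 8.58%. Without the filter on low counts the median against MDA-MB-468 was 0. VIM (chr10:17228259-17237593), vimentin, stood at 0.129, 0.177 and 0.0976 CPM in WiDr, 6.41, 7.22 and 8.16 in MDA-MB-468 and 3450, 4246 and 4008 in PANC-1. WiDr was lowest in every library and the lines did not overlap, with differences of -5.70 ± 0.22 and -14.77 ± 0.24 (edgeR quasi-likelihood, adjusted p = 2.4e-08 and 3.7e-10). LOXL2, a collagen crosslinker, differed by -6.80 ± 0.17 and -8.64 ± 0.18. CYR61, a matrix protein, differed by -3.76 ± 0.12 and -5.97 ± 0.13, and CAV1, of caveolae, by -2.10 ± 0.10 and -4.35 ± 0.10. TWIST2 and SPARC had no count in WiDr. ZEB1, AXL and CTGF were between the lines, above MDA-MB-468 and below PANC-1. NT5E, higher in WiDr by differences of 4.48 ± 0.12 and 0.52 ± 0.11, reversed to a smaller difference of -0.24 with the guide control libraries.

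Among keratins 2 of 21 tested members (23 listed) were higher in WiDr and 7 lower, 6 over 2-fold, with medians of -6.87 and -0.27, the latter -0.78 with the guide control libraries. The share lower was 33.3%, against 21.9% of all genes, and the share over 2-fold lower 28.6%, against 8.58%. The higher ones were KRT20 and KRT13. KRT19, a keratin of simple epithelia, stood at 377, 431 and 408 CPM in WiDr, 1962, 1282 and 1391 in MDA-MB-468 and 1647, 2279 and 2399 in PANC-1, and differed by -1.93 ± 0.19 and -2.38 ± 0.20. KRT5, of basal cells, averaged 1588 CPM in MDA-MB-468 and 0 in WiDr, and KRT7, a simple-epithelium keratin usually missing from colon, averaged 1277 in MDA-MB-468 against 10.9 in WiDr and 7.27 in PANC-1. KRT14, KRT16 and KRT17 followed KRT5 in being highest in MDA-MB-468, with the reservation that these genes have close copies. KRT8 and KRT18 were expressed in all lines, KRT8 at 2186, 1757 and 5104 CPM on average.

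Cell-matrix genes were higher in WiDr at 8 of 27 tested integrins and laminins (30 listed), 6 over 2-fold, and lower at 5, 3 over 2-fold. The shares were 29.6% higher and 18.5% lower, against 21.6% and 21.9% of all genes tested. Past 2-fold they were 22.2% and 11.1%, against 9.30% and 8.58%. The medians were 0.56 and -0.06, or 0.09 and -0.69 without the filter on low counts and 0.11 and -0.06 with the guide control libraries. The 6 include the epithelial hemidesmosome pair and chains of a laminin that it binds. ITGA6 stood at 704, 644 and 685 CPM in WiDr, 66.7, 116 and 98.3 in MDA-MB-468 and 184, 112 and 120.2 in PANC-1, with differences of 2.86 ± 0.24 and 2.29 ± 0.24 (edgeR quasi-likelihood, adjusted p = 4.11e-06 and 1.59e-05). ITGB4, its partner, differed by 2.58 ± 0.21 and 4.26 ± 0.23. The laminin chains LAMA3 and LAMB3 were over 2-fold higher, LAMB3 at 316, 340.1 and 333 CPM in WiDr, 20.1, 23.7 and 22.8 in MDA-MB-468 and 0.921, 0.639 and 0.797 in PANC-1. ITGA5, a fibronectin receptor chain, averaged 0.0217 CPM in WiDr against 5.69 and 139.8 in the other lines.

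Ligands and receptors of the EGF family were higher at 8 of 14 tested members (15 listed), 6 over 2-fold, and NRG2 was over 2-fold lower, with medians of 1.26 and 1.59, or 0.78 and 2.62 with the guide control libraries. The share higher was 57.1%, against 21.6% of all genes. Past 2-fold the shares were 42.9% higher and 7.14% lower, against 9.30% and 8.58%. EREG, epiregulin, stood at 379, 333 and 361 CPM in WiDr, 0, 0.56 and 0.434 in MDA-MB-468 and 0.307, 0.203 and 0.313 in PANC-1. Its differences of 10.06 ± 0.49 and 10.32 ± 0.49 (edgeR quasi-likelihood, adjusted p = 9.07e-08 and 7.5e-08) left every WiDr library far above every other. AREG, amphiregulin, stood at 389, 390.3 and 394 CPM in WiDr, 4.84, 2.3 and 2.64 in MDA-MB-468 and 0.102, 0.203 and 0.0854 in PANC-1, with differences of 6.90 ± 0.29 and 11.53 ± 0.38. BTC and HBEGF were also over 2-fold higher. Of the receptors, ERBB3 stood at 208, 204 and 196 CPM in WiDr, 67.4, 79.3 and 70.9 in MDA-MB-468 and 0.665, 0.726 and 0.598 in PANC-1, with differences of 1.48 ± 0.09 and 8.25 ± 0.13, and ERBB2 differed by 1.39 ± 0.12 and 1.68 ± 0.12. EGFR, the receptor of these ligands, stood at 52.4, 54.6 and 55.9 CPM in WiDr, 421, 1916 and 1050 in MDA-MB-468 and 188, 38.8 and 50.2 in PANC-1. The MDA-MB-468 libraries were all above WiDr but spread over severalfold, and the first PANC-1 library was above the other two. EGFR in WiDr was below MDA-MB-468 by a log2 difference of -4.38 ± 0.72 (adjusted p = 0.000416) and did not pass against PANC-1, at -0.77 ± 0.64 (adjusted p = 0.299), a value that was 0.285 without the first PANC-1 library. ERRFI1, a feedback inhibitor of EGFR, was higher with differences of 2.53 ± 0.10 and 0.51 ± 0.10 but had a smaller difference of -0.295 with the guide control libraries.

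Members of the FGF, IGF and hedgehog families were higher at 12 of 30 tested genes (34 listed), 11 over 2-fold, and lower at 7, 6 over 2-fold, with medians of 1.65 and 1.29, or 1.41 and 1.17 with genes at 0 set at their bound. They were 1.26 and 0.47 without the filter on low counts and 1.81 and 0.86 with the guide control libraries. The shares were 40% higher and 23.3% lower, against 21.6% and 21.9% of all genes. Past 2-fold they were 36.7% and 20%, against 9.30% and 8.58%. FGF19, a hormone of the ileum that restrains bile acid synthesis, stood at 100.2, 109 and 103 CPM in WiDr, 0 in every library of MDA-MB-468 and 0.0512, 0 and 0.057 in PANC-1, at least 3575-fold higher than in MDA-MB-468 and different from PANC-1 by 11.33 ± 0.28 (edgeR quasi-likelihood, adjusted p = 2.59e-08). FGFR2 and FGFR3 were over 2-fold higher, while FGFR1 stood at 0.548, 1.03 and 0.78 CPM in WiDr, 53, 62.4 and 60.8 in MDA-MB-468 and 51.9, 37.2 and 40.8 in PANC-1, with differences of -6.21 ± 0.23 and -5.77 ± 0.23. IGF2 stood at 89.1, 89.95 and 91.9 CPM in WiDr, 0 in every library of MDA-MB-468 and 13.8, 9.82 and 10.7 in PANC-1, above every library of both other lines. Hedgehog ligands were higher: SHH stood at 104, 114 and 112 CPM in WiDr, 0, 0 and 0.0621 in MDA-MB-468 and 50.3, 33.8 and 40.1 in PANC-1, and IHH differed from PANC-1 by 6.54 ± 0.57. PTCH1, the ligands' receptor and a target of the pathway, differed by 1.95 ± 0.42 and 1.80 ± 0.42, and GLI1, a target and effector, by 6.32 ± 0.46 and 2.27 ± 0.33. SMO, the signal transducer of the same pathway, had no count in WiDr against means of 13.2 and 0.639 CPM, and the factor GLI3 likewise against 15.5 and 0.229.

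In the TGF-beta and BMP pathway 7 of 35 tested members (36 listed) were higher, 4 over 2-fold, and 11 lower, 6 over 2-fold, with medians of 0.30 and -0.18, the latter -0.61 with the guide control libraries. The shares higher (20%) and over 2-fold higher (11.4%) lay near those of all genes tested (21.6% and 9.30%), and the shares lower were 31.4% and 17.1%, against 21.9% and 8.58%. The ligand BMP4 stood at 236, 257 and 242 CPM in WiDr, 7.72, 4.4 and 5.09 in MDA-MB-468 and 0.0768, 0.029 and 0.057 in PANC-1. It differed by 5.42 ± 0.21 and 12.02 ± 0.33 (edgeR quasi-likelihood, adjusted p = 2.56e-08 and 3e-09), and BMP2 by 2.21 ± 0.20 and 4.58 ± 0.23. Their target ID3 was near 0 in WiDr, as given above, whereas ID1 was between the lines at 53.6 CPM and ID2 at 35 CPM differed from MDA-MB-468 by 0.29 ± 0.18 (adjusted p = 0.185). The activin subunit INHBB differed by -7.64 ± 0.17 and -7.12 ± 0.17. TGFBR2, a receptor often lost in colorectal tumours, was higher at 130.3 CPM against 48.7 and 53.1. SMAD4, the shared transducer of both branches, stood at 18.4, 16.8 and 16.2 CPM in WiDr, 0.826, 0.644 and 0.341 in MDA-MB-468 and 44.5, 39.99 and 40.5 in PANC-1; MDA-MB-468 was near 0 and WiDr between.

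HOX genes showed the 5' part of the HOXA cluster high in WiDr. Of 39 listed, 32 were tested: 11 were higher than in each other line, 10 over 2-fold, and 4 lower, 3 over 2-fold. The shares were 34.4% higher and 12.5% lower, against 21.6% and 21.9% of all genes tested. Over 2-fold they were 31.2% and 9.38%, against 9.30% and 8.58%. The medians were 3.23 and -0.33. HOXA9 (chr7:27162435-27175180) stood at 43.9, 42.2 and 42.2 CPM in WiDr, 0.057, 0.028 and 0.031 in MDA-MB-468 and 0.307, 0.203 and 0.342 in PANC-1. Its differences of 9.98 ± 0.22 and 7.21 ± 0.17 (edgeR quasi-likelihood, adjusted p = 2.01e-09 and 1.25e-09) kept all WiDr libraries apart from the rest. HOXA5, HOXA6, HOXA7, HOXA10, HOXA11 and HOXA13 were over 2-fold higher too, HOXA10 by 3.80 ± 0.10 and 7.0 ± 0.13 and HOXA13 by 7.34 ± 0.49 and 3.76 ± 0.35. Toward the 3' end HOXA2 and HOXA3 differed from PANC-1 by 0.17 ± 0.15 and -0.14 ± 0.11, neither of which passed. In HOXB no gene from HOXB2 to HOXB8 was called higher in WiDr than in PANC-1, and HOXB9 was the member of that cluster over 2-fold higher than in each line. HOXB9 stood at 225, 234 and 231 CPM in WiDr, 0 in every library of MDA-MB-468 and 77.2, 71.1 and 73 in PANC-1, at least 7905-fold higher than MDA-MB-468 and different from PANC-1 by 1.64 ± 0.09. HOXB13, a marker of the distal colon, was between, at 2.27 CPM against 16.8 in PANC-1. The HOXC cluster ran the other way at its 5' end: HOXC10 stood at 0.161, 0.266 and 0.195 CPM in WiDr, 32.7, 27.6 and 30.4 in MDA-MB-468 and 93.4, 108 and 107 in PANC-1, with differences of -7.15 ± 0.18 and -8.92 ± 0.18, and HOXC11 and HOXC13 were over 2-fold lower. In HOXD, HOXD13 was at 2.6 CPM in WiDr and 0 in every other library, so it passed the filter through WiDr alone and had to differ. All 10 higher and 3 lower genes over 2-fold apart kept WiDr outside the range of the other lines in the 27 further libraries. Of all genes with these calls, 88.1% of the higher and 86.6% of the lower did so.

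**Figure D4:**
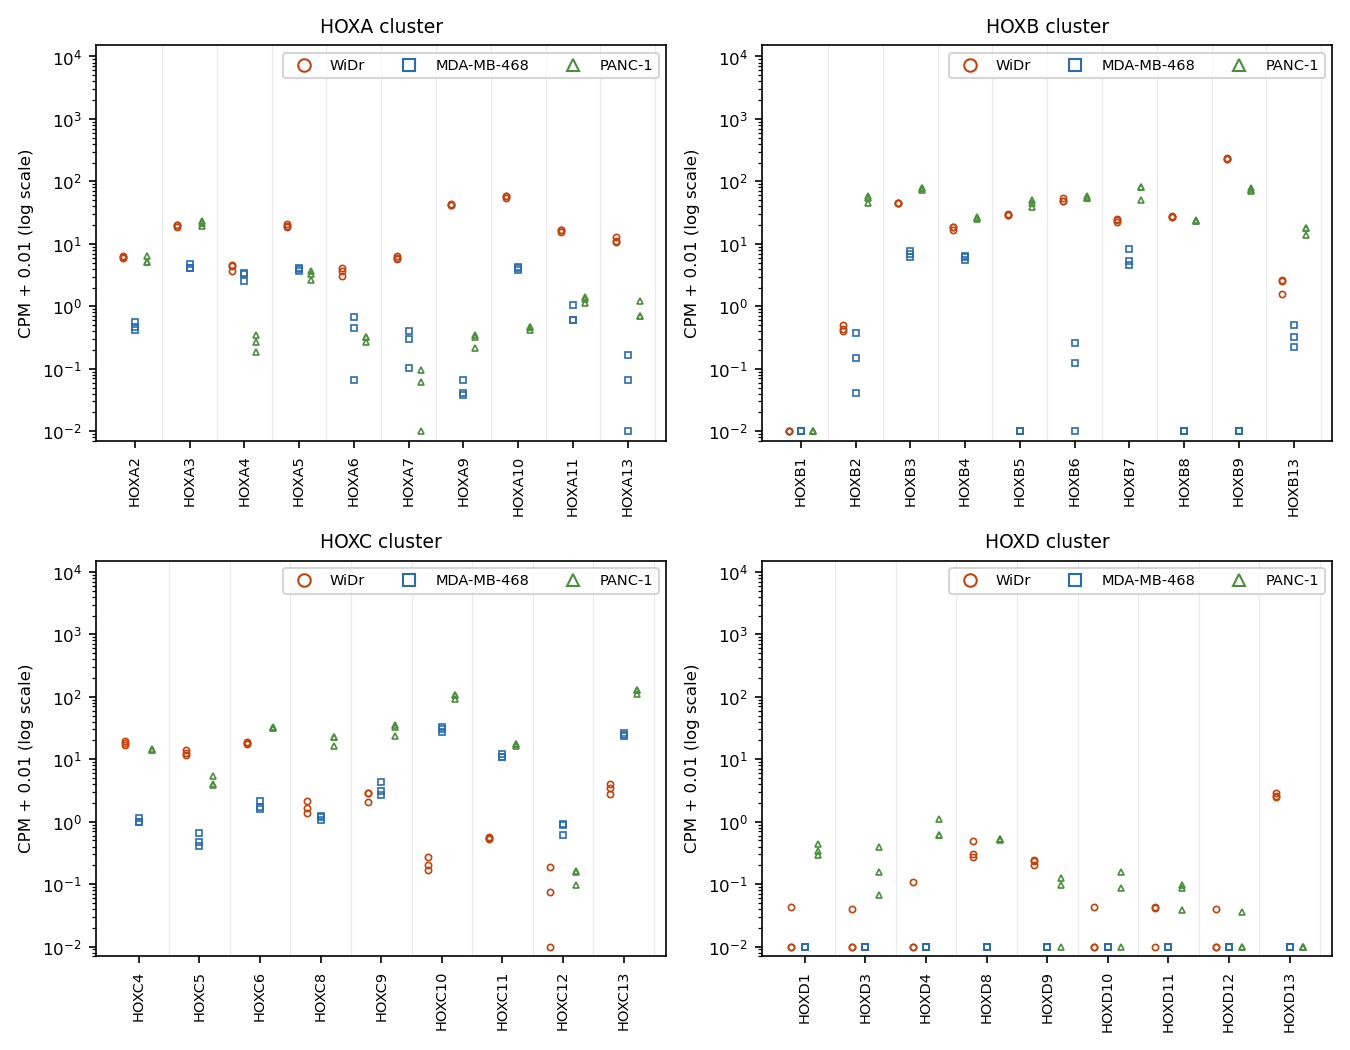
CPM (log axis, with 0.01 added) of the reported HOX genes in each library, 1 panel per cluster in gene order; WiDr circles, MDA-MB-468 squares, PANC-1 triangles. WiDr lies above both other lines from HOXA5 to HOXA13, and below both at HOXC10, HOXC11 and HOXC13.

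Interferon-stimulated genes, the antiviral set that interferon signalling switches on, were higher in WiDr at 35 of 44 members, all tested, and lower at 1. Over 2-fold higher were 30 (68.2%, against 9.30% of all genes). The medians were 3.20 and 2.1, and the summed level of the list ran from 3889 to 3942 CPM in WiDr, 712 to 771 in MDA-MB-468 and 1238 to 1287 in PANC-1. OAS2, a sensor of double-stranded RNA, stood at 63.6, 59.9 and 61 CPM in WiDr, 2.31, 2.27 and 2.3 in MDA-MB-468 and 1.64, 1.16 and 1.28 in PANC-1. Every WiDr library lay above every other, with differences of 4.74 ± 0.13 and 5.49 ± 0.14 (edgeR quasi-likelihood, adjusted p = 4.21e-09 and 1.78e-09). ISG15, a ubiquitin-like modifier, stood at 143, 176 and 160.5 CPM in WiDr, 7.89, 4.84 and 5.65 in MDA-MB-468 and 24.3, 44 and 49.6 in PANC-1, with differences of 4.70 ± 0.30 and 2.02 ± 0.26. SAMD9, an antiviral restriction factor, differed by 5.08 ± 0.33 and 4.01 ± 0.31, and BST2, tetherin, by 4.97 ± 0.23 and 3.98 ± 0.22. Of the transcription factors, IRF7 stood at 88.2, 99.1 and 91.3 CPM in WiDr, 10.5, 7.45 and 9.12 in MDA-MB-468 and 15.3, 18.2 and 17.9 in PANC-1, and IRF9 differed by 3.31 ± 0.12 and 2.65 ± 0.11. IFITM3, a membrane restriction factor, was the member that was lower, with differences of -1.25 ± 0.16 and -2.33 ± 0.17, and MX2 was between the lines. In the further libraries the level in WiDr was less even: 15 of the 30 kept all 15 WiDr libraries above all 12 others. Of all genes over 2-fold higher, 88.1% did so. ISG15 there ran from 31.8 to 223 CPM in WiDr against 21.4 to 34.4 in PANC-1, and OAS2 from 6.39 to 184 against 1.69 to 3.35. With the WiDr guide controls in place of the hairpin controls, 35 members were over 2-fold higher.

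Antigen presentation did not move as a group: 6 of 21 tested members (30 listed) were higher, 3 over 2-fold, and 4 lower. The shares were 28.6% higher and 19% lower, against 21.6% and 21.9% of all genes tested. Past 2-fold they were 14.3% and 4.76%, against 9.30% and 8.58%. HLA-C was higher, with differences of 1.48 ± 0.12 and 1.17 ± 0.12, and HLA-B was between; counts of these genes can be affected by allele sequence and close copies. TAP1, the peptide transporter, was lower by log2 differences of -1.20 ± 0.08 and -2.05 ± 0.08, and the immunoproteasome subunits PSMB8 and PSMB9 were lower. Class II genes were mostly untested. Among chemokines and inflammatory genes 13 of 40 tested (48 listed) were higher, 9 over 2-fold, and 9 lower, 7 over 2-fold. The share higher was 32.5%, against 21.6% of all genes, and the share lower, 22.5%, was near the 21.9% of all genes. The shares over 2-fold were 22.5% higher and 17.5% lower, against 9.30% and 8.58%. LCN2, an iron-sequestering antimicrobial protein, stood at 417, 441 and 422 CPM in WiDr, 60.6, 43.1 and 50.03 in MDA-MB-468 and 11.5, 14.3 and 13.1 in PANC-1, with differences of 3.06 ± 0.14 and 5.04 ± 0.15. IL22RA1, the epithelial receptor of an interleukin that guards barriers, differed by 4.16 ± 0.12 and 3.84 ± 0.12, and CX3CL1, fractalkine, by -5.82 ± 0.12 and -4.72 ± 0.12.

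DNA replication and mitosis genes were lower in WiDr. Of 46 members, all tested, 28 were lower than in each other line, 13 over 2-fold (28.3%, against 8.58% of all genes), and 1, CDC6, was higher. The medians were -1.09 and -1.11, and the summed level ran from 3540 to 3577 CPM in WiDr, 6781 to 6949 in MDA-MB-468 and 7382 to 7876 in PANC-1. RRM2 (chr2:10120698-10131419), a subunit of ribonucleotide reductase, stood at 63.9, 57 and 56.5 CPM in WiDr, 451, 441 and 469 in MDA-MB-468 and 355, 381 and 365 in PANC-1. WiDr was lowest in every library, with differences of -2.94 ± 0.09 and -2.63 ± 0.09 (edgeR quasi-likelihood, adjusted p = 6.69e-09 and 7.7e-09). KIF20A, a kinesin of cytokinesis, stood at 8.83, 9.92 and 9.53 CPM in WiDr, 102, 119.8 and 119.6 in MDA-MB-468 and 114, 106 and 97.4 in PANC-1, with differences of -3.59 ± 0.11 and -3.49 ± 0.11. CENPA, the centromeric histone, differed by -3.27 ± 0.16 and -2.91 ± 0.15, the kinase AURKA by -1.80 ± 0.09 and -2.93 ± 0.10, and BIRC5, survivin, by -2.31 ± 0.13 and -2.88 ± 0.13. MKI67, the common marker of cycling cells, averaged 129, 313 and 407 CPM in WiDr, MDA-MB-468 and PANC-1. MCM2, MCM4 and MCM7 of the replicative helicase did not pass in both comparisons. With the WiDr guide controls in place, 18 members were lower and 8 over 2-fold lower, and the medians were -0.57 and -0.59. MCM6, E2F2, KIF11 and MYBL2, lower than in each other line with the hairpin controls, were then not lower than both. The 13 genes over 2-fold lower all lay below the other lines in every one of the further WiDr libraries. Of all genes over 2-fold lower, 86.6% did so.

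**Figure D5:**
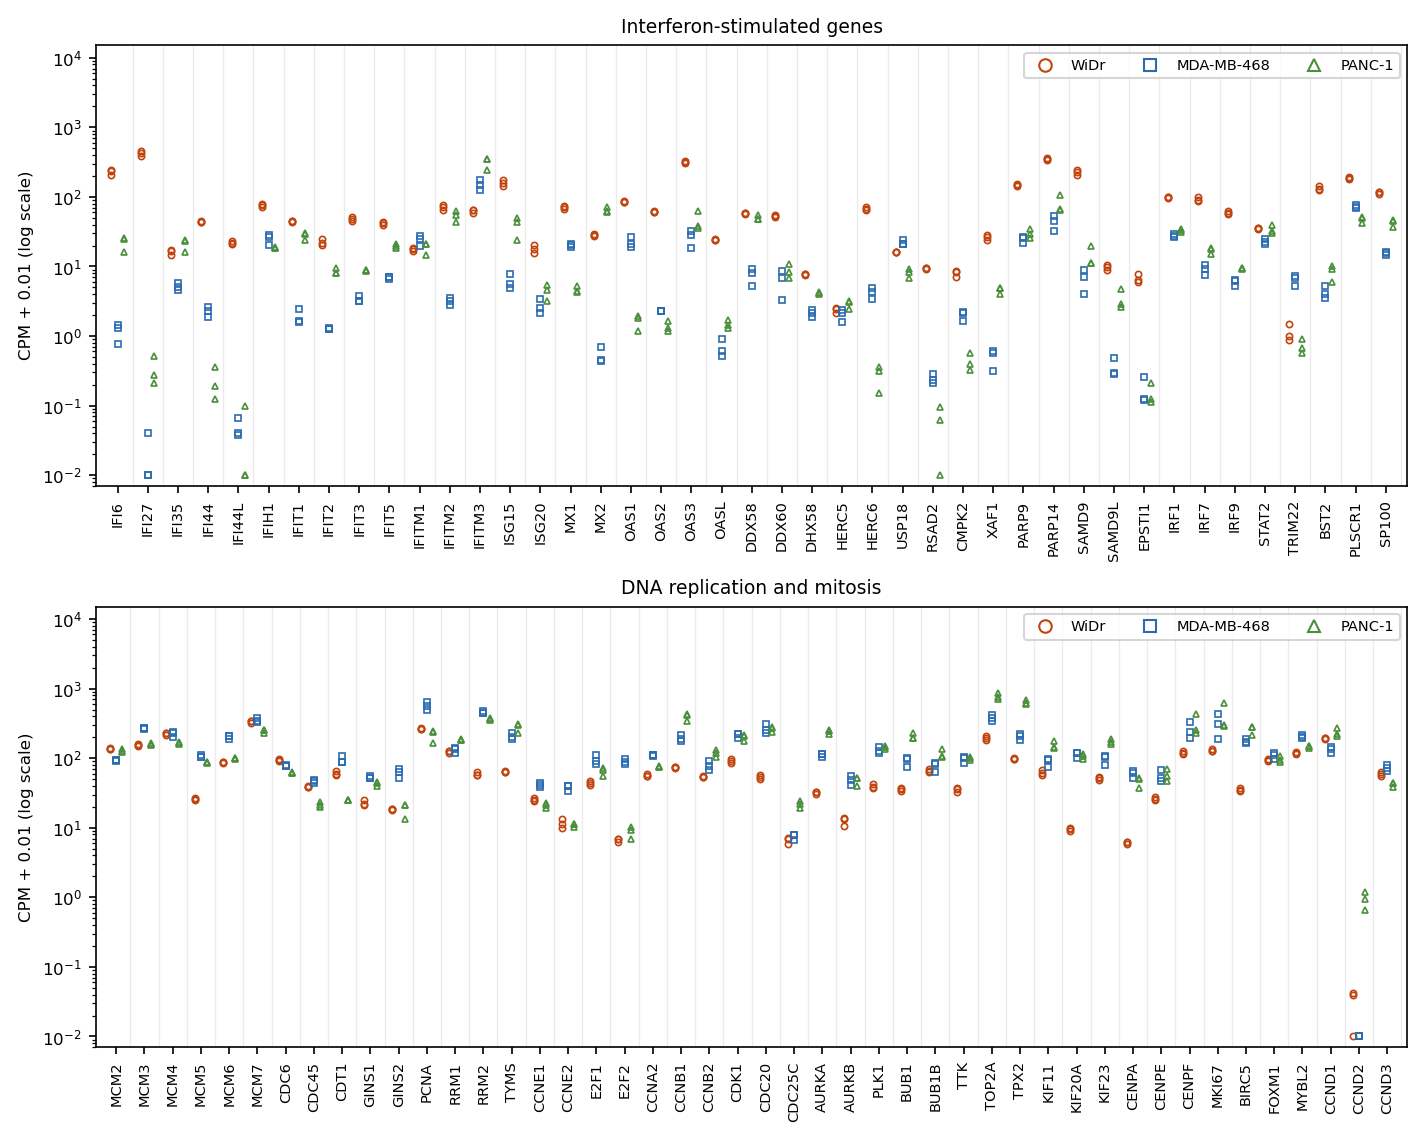
CPM (log axis, with 0.01 added) in each library of the reported interferon-stimulated genes and of DNA replication and mitosis genes; WiDr circles, MDA-MB-468 squares, PANC-1 triangles. OAS2 and IRF7 lie above both other lines in all WiDr libraries and RRM2 and KIF20A below.

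Cytosolic ribosomal protein genes were higher at 24 of 63 tested members (38.1%, against 21.6% of all genes), with none lower and medians of 0.58 and 0.59. Only RPL23 and RPL34 were over 2-fold higher, a share of 3.17% that was below the 9.30% of all genes. RPL23 stood at 1480, 1610 and 1614 CPM in WiDr, 533, 320.4 and 381 in MDA-MB-468 and 231, 434 and 416 in PANC-1, with differences of 1.93 ± 0.26 and 2.12 ± 0.26 (edgeR quasi-likelihood, adjusted p = 9.58e-05 and 5.08e-05). The count was not stable: it was 38 with the first MDA-MB-468 and PANC-1 libraries left out and 9 with the WiDr guide controls, where the medians were 0.21 and 0.11. These genes have many processed pseudogenes. The share of ribosomal RNA was lower in WiDr, at 1.59 to 2.71%, than in PANC-1, but overlapped that of MDA-MB-468, at 2.23 to 8.49%. Its bearing on these genes was not tested. With ribosomal RNA genes left out of the counts, which removes those genes and changes nothing else in the libraries, 24 members were higher.

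Drug metabolism and transport genes were higher at 11 of 34 tested members (42 listed), 7 over 2-fold, and lower at 5, all over 2-fold. The shares were 32.4% higher and 14.7% lower, against 21.6% and 21.9% of all genes tested. Over 2-fold they were 20.6% and 14.7%, against 9.30% and 8.58%. UGT1A10 is an intestinal glucuronosyltransferase that shares its last exons with the rest of the UGT1A family. It stood at 112, 99 and 103 CPM in WiDr and 0 in every library of both other lines. This made it at least 3588-fold and at least 3782-fold higher, but it passed the filter through WiDr alone and so had to differ. ABCC3, a basolateral exporter of conjugates, stood at 627, 663 and 638 CPM in WiDr, 53.3, 67.8 and 60.7 in MDA-MB-468 and 141, 97.8 and 106 in PANC-1, with differences of 3.41 ± 0.16 and 2.48 ± 0.15. CYP24A1, which inactivates vitamin D, differed by 9.65 ± 0.40 and 5.28 ± 0.27, and AKR1C3 by 2.18 ± 0.13 and 11.01 ± 0.23, with close relatives that may share reads. CYP1B1, an oestrogen hydroxylase, was lower by log2 differences of -4.19 ± 0.16 and -2.78 ± 0.15, and the carboxylesterase CES1 by -5.09 ± 0.15 and -4.58 ± 0.14.

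Genes known to be altered in MDA-MB-468 or PANC-1 checked the labels of those lines, and no such gene is given for WiDr. RB1, the retinoblastoma gene that MDA-MB-468 has lost, stood at 107, 95.3 and 101 CPM in WiDr, 0.37, 0.476 and 0.559 in MDA-MB-468 and 87, 59.2 and 56.3 in PANC-1. CDKN2A, deleted in PANC-1, stood at 62.3, 71.6 and 68 CPM in WiDr, 98.7, 71 and 74.2 in MDA-MB-468 and 0 in every library of PANC-1, at least 2437-fold higher in WiDr than in PANC-1. The neighbours of CDKN2A, CDKN2B and MTAP, were over 2-fold higher in WiDr than in each line, MTAP by 1.29 ± 0.15 and 4.21 ± 0.17. Of 13 members of the list of genes altered in these lines 6 were higher (46.2%, against 21.6% of all genes), 3 over 2-fold (23.1%, against 9.30%), and none lower. Because members were chosen for such alterations, these shares partly restate the choice and support nothing.

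Genes of the compared tissues were examined in the same way. In the pancreatic list 8 of 18 tested members (29 listed) were higher in WiDr (44.4%), all over 2-fold, and 2 lower (11.1%). Over all genes tested 21.6% were higher and 21.9% lower, and 9.30% were over 2-fold higher. The summed level of the list went the other way, at 967 to 1060 CPM in WiDr, 2463 to 3624 in MDA-MB-468 and 1704 to 2450 in PANC-1. CFTR, the chloride channel of ducts and gut, stood at 43.9, 41 and 42.7 CPM in WiDr and 0 in every library of both other lines. It was at least 1460-fold and at least 1539-fold higher, but passed the filter through WiDr alone and so had to differ. The trypsinogen genes PRSS1 and PRSS2, also acinar, were among the 15 ranked highest in WiDr, as given above. In contrast, the acinar genes CPA1, CPB1 and PNLIP and the hormone genes INS and GCG were at or near 0 in all lines. PDX1 was at 8.01 CPM in PANC-1 against 1.09 in WiDr. Of 20 tested basal breast genes (22 listed) 4 were higher (20%) and 5 lower (25%), near the shares of all genes. All 5 were over 2-fold lower, against 8.58% of all genes. The median was -4.19 against MDA-MB-468 and 1.59 against PANC-1. SFRP1 and ID4 had no count in WiDr. The luminal breast list had 5 of 15 tested (17 listed) higher (33.3%) and 2 lower (13.3%). The higher ones include AGR2, TFF1 and XBP1, which secretory gut cells also express. In the granin and neuroendocrine list 1 of 11 tested (22 listed), SCG5, was higher (9.09%) and 2 lower (18.2%).

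The summed levels of the leukocyte, endothelial and hepatocyte markers were higher in WiDr than in the other lines, while PTPRC, KDR and ALB, a defining marker of each, were at or near 0. Of 10 leukocyte markers 4 were tested and LYZ alone was higher, with PTPRC, CD3E, CD3D and MS4A1 at 0 in WiDr. The summed level of the list was 1538 to 1565 CPM in WiDr, nearly all of it LYZ, against 18.9 to 29.4 in MDA-MB-468 and 78 to 90.9 in PANC-1. Of 8 endothelial markers 3 of 7 tested were higher (42.9%, against 21.6% of all genes), TEK, ESAM and CLDN5, while KDR was at 0, CDH5 at 0.0107 and PECAM1 at 0.0619 CPM. The medians of this list were -4.37 and 1.95, so most tested members were below MDA-MB-468. ESAM averaged 85.05 CPM in WiDr, and the list summed to 86.2 to 93 CPM in WiDr, 7.06 to 8.97 in MDA-MB-468 and 0.997 to 1.23 in PANC-1. Of 8 fibroblast markers LUM was higher and COL1A1 lower, with DCN, PDGFRA and COL1A2 at 0. The list summed to 3.87 to 4.83 CPM in WiDr, 10.3 to 13.5 in MDA-MB-468 and 28.4 to 37.7 in PANC-1. Of 10 hepatocyte markers SERPINA1 and TTR were higher and TF lower, and ALB averaged 0.0107 CPM. SERPINA1 averaged 336 CPM, and the list summed to 328 to 344 CPM in WiDr, 2.36 to 4.19 in MDA-MB-468 and 6.99 to 8.49 in PANC-1.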

How the data were processed

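The values are expected counts per gene, deposited by the authors for 26475 gene symbols. Per the submitters' processing notes, Bowtie2 2.1.0 and RSEM 1.2.15 were used with hg38; the sources used here do not give the annotation or strand setting. Symbols were placed with GENCODE 29 (15020 tested genes). Expected counts were rounded, and genes with enough counts (edgeR 4.0.16 in R 4.3.3 with limma 3.58.1, filterByExpr, minimum count 10) gave 16112 tested; 5137 had no count in the 9 libraries. Libraries were grouped by title, scaled by TMM and fitted in 1 robust quasi-likelihood model with a term per line; a standard error is the difference over the square root of F. P-values were adjusted over all genes by Benjamini-Hochberg, and glmTreat tested a fold of 2. Intervals on counts cover counting error only. The fit was tested on simulated data. Named genes are the 15 ranked highest and lowest, list members with the largest smaller difference, and defining markers. The members and the 28 lists were chosen with earlier results of these data known. Alternatives included DESeq2 1.42.0 and other scalings. Some genes, the targeted gene of the series among them, are not reported here, though the list counts include them.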

Additional observations from a re-analysis of the deposited data

How the results depend on the processing

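The 6 counts of genes kept within 1.5 times of their value under every alternative run: DESeq2, upper quartile or no scaling, no filter on low counts, ribosomal RNA genes left out, each pair of lines alone, all 36 libraries in 1 fit, WiDr guide controls, a replicate block, both first libraries left out and each library left out. Some genes dropped below the filter with the guide controls or with pairs of lines alone and have no value there. Leaving out single libraries gave 10684 to 12342 genes against MDA-MB-468, 10805 to 12364 against PANC-1, 3130 to 3759 higher, 3050 to 3714 lower, 1379 to 1609 over 2-fold higher and 1276 to 1426 over 2-fold lower. Replicate numbers did not pair the libraries: residual r was -0.808 to 0.294 between the same numbers and -0.74 to 0.852 between different numbers. The 0.852 was between MDA-MB-468 library 2 and PANC-1 library 1. MDA-MB-468 library 1 had r of 0.718 and 0.733 with PANC-1 libraries 2 and 3, and -0.808 with PANC-1 library 1. The libraries that stood apart in these lines thus varied in opposite directions, for a reason that was not tested. A replicate block gave 10621, 10774, 3120, 3087, 1382 and 1272. With the WiDr guide controls, 1253 of the 1499 and 1058 of the 1383 genes were shared, DNA replication members fell from 28 to 18 lower and from 13 to 8 over 2-fold lower, and ribosomal proteins from 24 to 9 higher; the latter were 38 without both first libraries of MDA-MB-468 and PANC-1. The cause was not tested. Of 430 genes followed, 8 changed sign against at least 1 line, all with the guide controls, where the difference of smaller size was -0.46 for PHLDA1, -0.239 for NT5E, -0.295 for ERRFI1, 0.248 for MCM6, 0.607 for E2F2, 0.034 for KIF11, -0.144 for MYBL2 and -0.299 for RPS27. Of 8137 such values 7928 kept direction and call, 93 lost and 108 gained it. Depth limits genes near the floor of 3 counts, where folds are bounds.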

Other observations

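Some genes that differed lay side by side. On chromosome 7, from 27129977 to 27207259 (hg38, GENCODE 29), 11 neighbouring tested genes from HOXA-AS3 to HOTTIP were each over 2-fold higher in WiDr than in both other lines. Antisense RNAs among them cannot be told apart from the genes they overlap, since the strand setting is not given. On chromosome 19, 7 neighbours of the CYP2 cluster from CYP2A6 to CYP2S1 (40843538 to 41207539) were over 2-fold higher, with close copies among them. The same chromosome held runs of zinc finger genes over 2-fold lower, 8 from ZNF569 to ZFP30 (37411155 to 37692337) and 7 from ZNF93 to ZNF85 (19900913 to 20950697). By chromosome, the share of tested genes over 2-fold higher was 20% on chromosome 8 (99 of 494), 19.7% on 4 (105 of 534), 13.9% on 13 (37 of 267), 13.5% on 9 (80 of 593) and 13.2% on 7 (100 of 755), against 9.30% over all, and 13.2% of those on chromosomes 19 and 21 were over 2-fold lower, against 8.58%.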
